A study of Homo sapiens with 54 samples.

Results

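The cells described here were single RH4 cells with a high integrated stress response, chosen by the transcripts of 5 genes of that response. A cell was called ISR-high when it held at least 5 unique molecular identifiers (UMIs, each marking 1 captured transcript) summed over DDIT3, CHAC1, INHBE, TRIB3 and ASNS. It was called a zero cell when it held none. Both classes were taken only from cells with at least 4000 UMIs and 200 genes and under 15% of UMIs from mitochondrial genes. Of 24931 barcodes, 17659 passed these filters, and 2192 of those were ISR-high and 7563 were zero cells. The rule used measured values, so the levels of these 5 genes in the 2 classes describe the choice and are no result.

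RH4 is an established line of fusion-positive rhabdomyosarcoma, a childhood tumor of muscle lineage, and carries the fusion transcription factor PAX3-FOXO1. Cells labelled with genotype wt were kept for 16 h in P3FI-90 or in the solvent DMSO, and each condition gave 1 droplet 3′ library. P3FI-90 is an inhibitor of histone demethylases that the labels write as PFI-90. The same line was sequenced in bulk after 24 h in P3FI-90 (n = 3), in the related inhibitor P3FI-63 at 10 µM (n = 2) or in DMSO (n = 3), and after 6 h in P3FI-90 or DMSO (n = 1 each). Of the 24 h P3FI-90 libraries, replicates 3 and 4 were labelled 1 µM. The labels of replicate 1 give no dose in figures, but its title carries the mark "lo", which they do not explain. It was counted as a replicate here, and its number follows the order of the libraries. All of these samples came from 1 line, and the labels do not say whether libraries of a group came from separate cultures, while the study's methods speak of biological replicates.

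The integrated stress response begins when 1 of several kinases phosphorylates the translation factor eIF2α. General translation then slows, while the mRNA of the transcription factor ATF4 is translated more. ATF4 turns on genes for amino acid synthesis and uptake, tRNA charging and further stress regulators. Among them, DDIT3 encodes CHOP, a C/EBP-family transcription factor linked to cell death under lasting stress. TRIB3 encodes a pseudokinase that binds ATF4 and CHOP, and ASNS encodes asparagine synthetase. CHAC1 encodes an enzyme that degrades glutathione, and INHBE encodes the βE subunit of activins and inhibins. On GRCh37, to which the reads were aligned, DDIT3 lies at chr12:57910371-57915520 on the minus strand and INHBE at chr12:57846106-57853063 on the plus strand. CHAC1 lies at chr15:41245160-41248710 and TRIB3 at chr20:343479-378203, both on the plus strand, and ASNS lies at chr7:97480989-97501854 on the minus strand.

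ATF4 with a C/EBP partner binds a composite element, written here as TGATGNAA, and promoters of the response often hold it. The promoters below are shown because they hold this element in 2 rule genes and in 2 genes that were higher in ISR-high cells of both libraries although the rule did not use them (HERPUD1 and JDP2, described further on). They are RefSeq promoters on GRCh38.p14, from 250 bases before to 50 bases after the annotated start, printed 5′ to 3′ on the strand of the gene. JDP2 has 3 promoters listed and ASNS 2, and the one printed is the first that held the element. Capitals mark the element on either strand, so that TTGCATCA is TGATGCAA read from the other strand.
ASNS, chr7:97872359-97872658, minus strand: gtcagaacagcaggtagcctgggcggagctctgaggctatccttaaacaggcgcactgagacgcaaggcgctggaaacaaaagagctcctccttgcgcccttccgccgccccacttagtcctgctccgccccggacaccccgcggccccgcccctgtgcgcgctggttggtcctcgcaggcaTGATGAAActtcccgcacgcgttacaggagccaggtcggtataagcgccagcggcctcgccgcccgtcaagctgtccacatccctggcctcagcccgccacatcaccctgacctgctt
CHAC1, chr15:40953221-40953520, plus strand: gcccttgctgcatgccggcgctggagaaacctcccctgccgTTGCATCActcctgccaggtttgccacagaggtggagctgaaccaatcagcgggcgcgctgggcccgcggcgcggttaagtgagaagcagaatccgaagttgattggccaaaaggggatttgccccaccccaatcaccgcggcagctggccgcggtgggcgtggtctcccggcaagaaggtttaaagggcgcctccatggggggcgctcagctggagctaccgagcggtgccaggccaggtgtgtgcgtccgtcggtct
HERPUD1, chr16:56931892-56932191, plus strand: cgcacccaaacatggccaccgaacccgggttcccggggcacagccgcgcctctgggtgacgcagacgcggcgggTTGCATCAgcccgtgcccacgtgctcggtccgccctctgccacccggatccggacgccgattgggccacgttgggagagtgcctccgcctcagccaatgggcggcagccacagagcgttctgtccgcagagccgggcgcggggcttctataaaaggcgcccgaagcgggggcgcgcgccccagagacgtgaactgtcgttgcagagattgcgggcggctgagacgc
JDP2, chr14:75427772-75428071, plus strand: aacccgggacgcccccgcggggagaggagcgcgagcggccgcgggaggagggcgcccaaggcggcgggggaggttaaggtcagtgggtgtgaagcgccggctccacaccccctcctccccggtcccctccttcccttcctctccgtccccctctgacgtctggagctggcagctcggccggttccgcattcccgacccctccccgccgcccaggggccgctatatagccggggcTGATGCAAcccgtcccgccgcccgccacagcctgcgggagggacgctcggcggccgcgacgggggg
Of the 27305 genes with a promoter listed, 4.46% (1217 genes) held the element on either strand. A match is a description of letters in a window of 300 bases and shows neither binding nor its absence elsewhere.

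ISR-high cells made up 24.4% of the P3FI-90 cells that passed the filters (2034 of 8346, 95% Clopper-Pearson interval 23.5 to 25.3%) and 1.70% of the DMSO cells (158 of 9313, 1.44 to 1.98%). Zero cells were 25.1% of P3FI-90 cells (2095 cells) and 58.7% of DMSO cells (5468 cells). These intervals, and the Poisson intervals below, cover counting error only. With 1 library per condition, no p can be given for a difference between conditions. A culture or library effect and the treatment cannot be told apart in the single-cell data.

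The class is a range cut from a per-cell score, and whether it forms a separate state was not tested. Each further UMI up to 7 held fewer cells of the P3FI-90 library, with 781 cells at 3 UMIs, 554 at 4, 385 at 5, 357 at 6 and 230 at 7. Just outside the rule, at 4 UMIs, were 554 P3FI-90 and 114 DMSO cells, and just inside, at 5 UMIs, were 385 and 69 cells. A tail of 487 P3FI-90 and 18 DMSO cells held 12 or more, up to 52 in 1 P3FI-90 cell and 39 in 1 DMSO cell. The plot of cells by rule UMIs shows no gap at the threshold, though counting error at so few UMIs per cell could hide one.

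**Figure D1:**
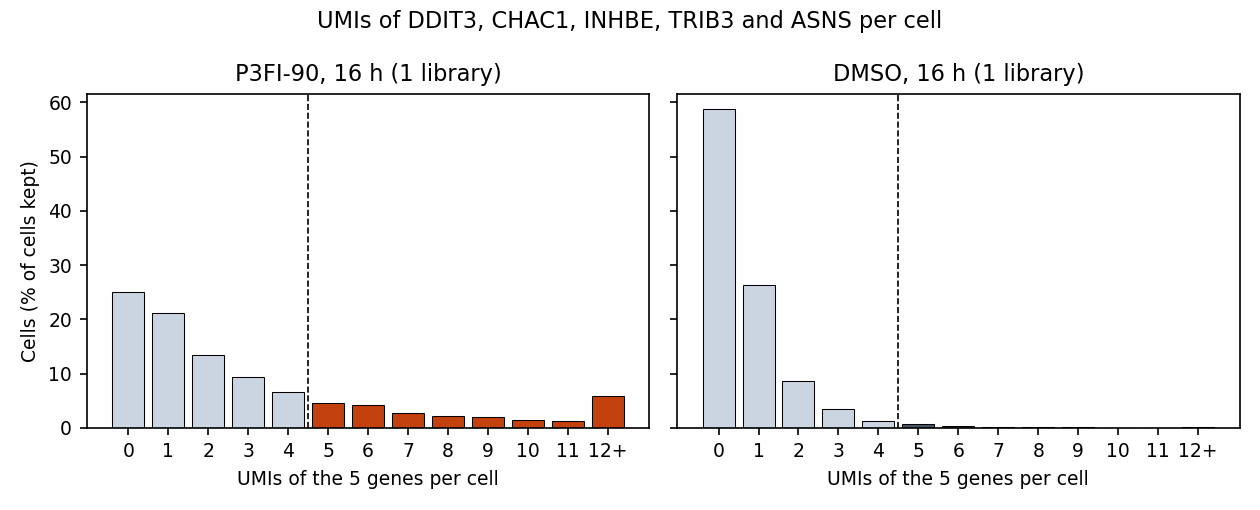
Percent of filtered cells (vertical axis) by UMIs summed over DDIT3, CHAC1, INHBE, TRIB3 and ASNS (horizontal axis, last bin 12 and above), for the P3FI-90 library (8346 cells) and the DMSO library (9313 cells). Zero cells were 25.1% of P3FI-90 and 58.7% of DMSO cells, and every bin from 2 UMIs upward was larger in the P3FI-90 library. The dashed line marks the threshold of 5 UMIs.

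Depth moved with the class, because a cell with more UMIs passes a fixed count more easily. ISR-high cells had a median of 21028 UMIs in the P3FI-90 library, against 13499 in its zero cells, and 27010 in the DMSO library, against 9969. All filtered cells had medians of 15462 UMIs (P3FI-90) and 12031 UMIs (DMSO). Within bands of depth, the ISR-high share was 5.78% of P3FI-90 cells and 0.0772% of DMSO cells at 4000 to under 8000 UMIs. It was 18.2% and 1.19% at 12000 to under 16000 UMIs, and 55.5% and 11.3% at 32000 UMIs and above. The P3FI-90 share was above the DMSO share in each of the 6 bands, with intervals that did not overlap.

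The level of the 5 genes per UMI sequenced did not climb with depth. Their summed level was 177 to 224 CPM (a gene's UMIs over all UMIs, on the usual scale) over the 6 bands in P3FI-90 cells and 47.7 to 51.5 CPM in DMSO cells. When every cell was thinned at random to 4000 UMIs, the summed level was 193 CPM in P3FI-90 cells and 49.98 CPM in DMSO cells. At that equal depth, 43.0% of P3FI-90 cells (41.9 to 44.1%) and 17.1% of DMSO cells (16.3 to 17.9%) held at least 1 UMI of the 5 genes. At least 3 UMIs were held by 8.53% and 0.354%, and at least 5 by 1.82% (152 cells) and 0.0215% (2 cells). The difference in share between the libraries was thus present with and without thinning, while its size depended on depth and threshold. RNA free in the droplets can give single UMIs, and in 1 cell line no cell type that lacks these genes was at hand to measure it.

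**Figure D2:**
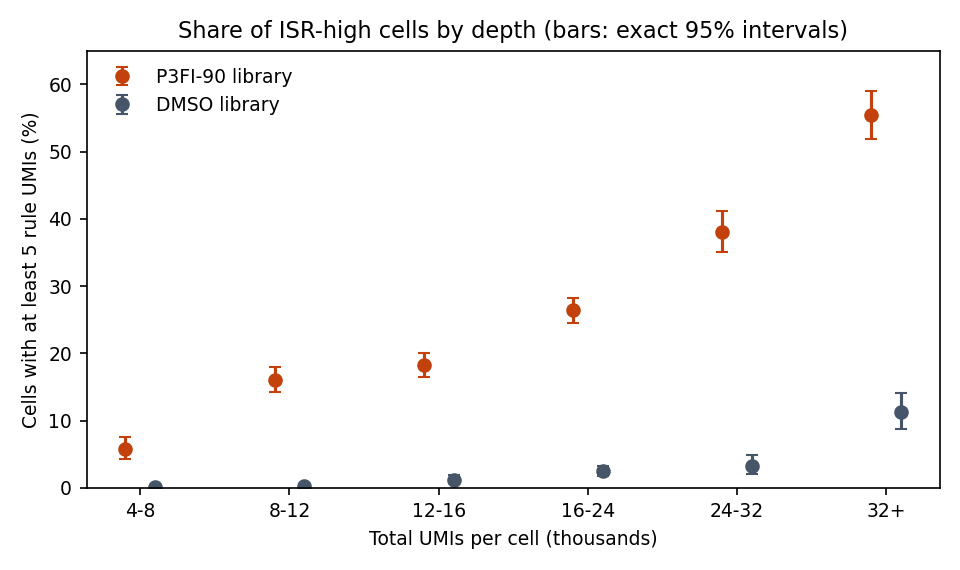
Percent of cells that were ISR-high, with 95% Clopper-Pearson intervals, by total UMIs per cell for the P3FI-90 and DMSO libraries. The P3FI-90 share was 5.78% in the shallowest band and 55.5% in the deepest, against 0.0772% and 11.3% in DMSO.

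Cells within the P3FI-90 library were unequal in these transcripts. After thinning, the variance of the summed rule UMIs was 1.93 times its mean in P3FI-90 cells and 1.17 times in DMSO cells, where a value of 1 is pure counting noise. At a given relative spread between cells this ratio grows with the mean, which was 0.772 UMIs in P3FI-90 and 0.200 UMIs in DMSO cells. Ratios at unlike means therefore cannot be set against each other as a measure of spread. Cytosolic tRNA synthetases outside the ATF4 program, a list of similar housekeeping enzymes, had ratios of 1.12 and 1.08. Other lists had larger ratios in P3FI-90 cells, with 3.15 for ER genes, 8.61 for G2 and mitosis genes and 14.1 for contractile genes. Their means were also higher, at 17.9, 11.6 and 16.4 UMIs per cell, so these ratios do not show a larger relative spread. A ratio above 1 was thus not particular to the stress response. ATF4 itself had 1.14 and 1.08. Of the 3 rule genes examined singly, DDIT3 had the largest ratio in P3FI-90 cells, at 1.82, against 1.31 for TRIB3 and 1.16 for ASNS. DDIT3 also had the highest mean, at 0.390 UMIs against 0.121 and 0.180, so these ratios do not rank the genes by unevenness.

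DDIT3 supplied the largest share of the rule UMIs. In P3FI-90 ISR-high cells it gave 50.9% of the rule UMIs, with a mean of 4.89 ± 4.19 UMIs per cell (SD over 2034 cells), and 94.5% of these cells held at least 1. ASNS was present in 78.2% of them, TRIB3 in 62.9%, INHBE in 38.9% and CHAC1 in 32.5%. In DMSO ISR-high cells DDIT3 gave 40.1% of rule UMIs, with 2.94 ± 3.75 UMIs per cell (SD over 158 cells), and was present in 81.6%. There, TRIB3 was present in 67.1%, ASNS in 73.4%, INHBE in 36.7% and CHAC1 in 19.6%.

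Most ISR-high cells expressed several rule genes at once. UMIs of 3 or more of the 5 genes were found in 796, 513 and 153 P3FI-90 cells (3, 4 and 5 genes) and in 58, 29 and 7 DMSO cells. DDIT3 alone carried 97 P3FI-90 cells and 9 DMSO cells over the threshold. Without DDIT3, 911 P3FI-90 cells (44.8%) and 70 DMSO cells (44.3%) still reached 5 UMIs.

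Whether the 5 genes moved together could be read by leaving each out in turn, so that it did not choose the cells. Classes were remade from the other 4 genes, at least 4 UMIs against 0, and each high cell was paired with a zero cell of its library within 10% in total UMIs. In every case the gene left out was higher in the cells chosen by the others, with Poisson intervals that did not overlap. DDIT3 was at 179 CPM (174 to 184) in such high cells and 40.7 CPM (38.2 to 43.2) in their zero cells in the P3FI-90 library, which is 4.40-fold. In DMSO cells it was at 43.98 CPM (37.1 to 51.7) against 17.2 CPM (13.02 to 22.3), 2.56-fold. DDIT3 therefore differed by a larger factor between the classes of treated cells than between those of untreated cells, a difference that was not tested.

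The other rule genes behaved alike when left out. TRIB3 was at 62.9 against 10.4 CPM in P3FI-90 cells (6.07-fold) and 29.9 against 9.66 CPM in DMSO cells (3.10-fold). ASNS was at 72.9 against 22.2 CPM (3.28-fold) and 37.1 against 11.5 CPM (3.23-fold). For ASNS the 2 libraries gave nearly the same ratio. CHAC1 was at 16.1 against 2.18 CPM in P3FI-90 cells (7.42-fold) and, with 30 against 6 UMIs in all, at 4.49 against 0.902 CPM in DMSO cells (4.97-fold). INHBE was at 23.2 against 3.16 CPM in P3FI-90 cells (7.34-fold) and, with 70 against 4 UMIs, at 10.7 against 0.616 CPM in DMSO cells (17.4-fold). The DMSO ratios of these 2 genes rest on few UMIs in zero cells. Without pairing, over all zero cells, the DMSO ratio of INHBE was 7.16-fold (76 against 100 UMIs).

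To compare all other genes at equal depth, each ISR-high cell was paired with a zero cell of its own library, within 10% in UMIs outside the 5 genes. This gave 1431 pairs in the P3FI-90 library, with medians of 16872 UMIs in ISR-high and 15948 in zero cells, and 153 pairs in the DMSO library, with 26161 and 26170. No partner was found for 603 P3FI-90 ISR-high cells, which were deeper (median 33277 UMIs), and for 5 DMSO cells. Ratios below are log2 ratios of summed CPM + 5, ISR-high over zero, and a gene past 1.5-fold is called higher or lower. Cells of 1 library share that library and are not replicates, so no p is given.

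Few genes differed. Of 11141 genes with at least 100 UMIs over the P3FI-90 pairs, 71 (0.637%) were higher and 46 (0.413%) were lower in ISR-high cells. Of 7503 genes over the DMSO pairs, 46 (0.613%) were higher and 39 (0.52%) were lower. The higher genes include 5 rule genes in P3FI-90 and 3 in DMSO cells, whose ratios were set by the choice of cells. Of 59 genes in 6 lists of the response that the rule did not use, 29 of 53 measured in P3FI-90 cells were higher and none lower, and 21 of 45 measured in DMSO cells were higher and none lower. In both libraries 29 of 7502 genes (0.387%) were higher, of which 3 were rule genes, 20 were on these lists, and HERPUD1 was on the list of endoplasmic reticulum (ER) genes. The median over all genes was 0.00 in P3FI-90 cells and -0.02 in DMSO cells.

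**Figure D3:**
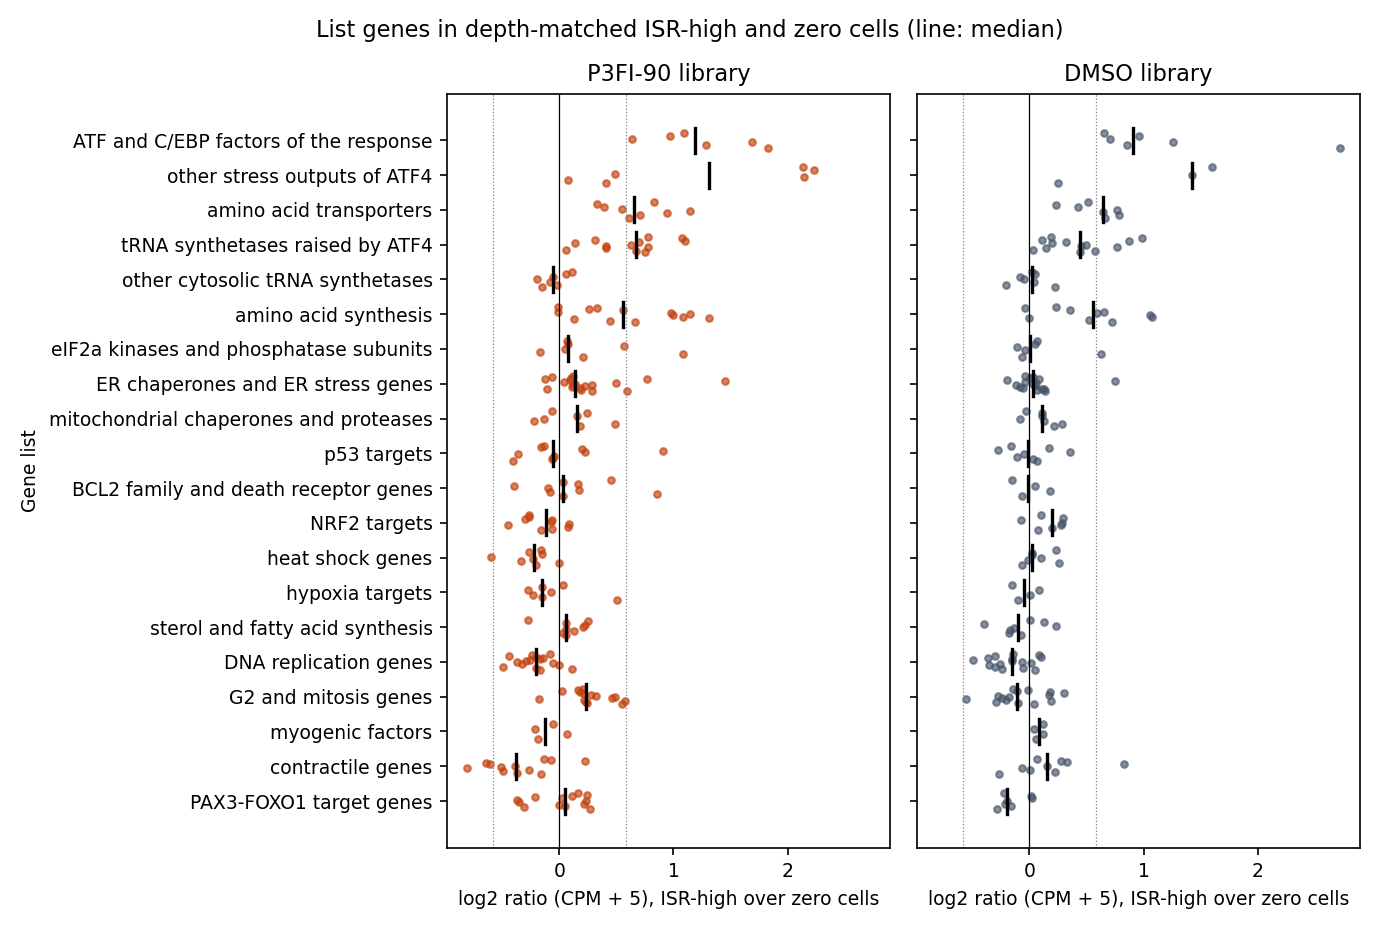
Log2 ratio of CPM + 5 in ISR-high over zero cells (horizontal axis) for each measured gene of each list (rows), in depth-matched pairs of the P3FI-90 library (1431 pairs) and the DMSO library (153 pairs), with the list median marked. The ATF and C/EBP factors had 6 of 6 genes past 1.5-fold (dotted lines) in both libraries, while tRNA synthetases outside the ATF4 program had medians of -0.06 and 0.03.

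The transcription factors of the response were the most uniform group, with 6 of 6 higher in both libraries and medians of 1.19 (P3FI-90) and 0.91 (DMSO). ATF4, its central factor, was at 207 CPM in ISR-high and 103 CPM in zero cells of the P3FI-90 library, and at 188 and 94.1 CPM in the DMSO library. CEBPB, a C/EBP factor that pairs with ATF4, was at 130 against 36.7 CPM and at 74.2 against 28.1 CPM. Both genes were higher in each library, CEBPB by the larger factor. NUPR1, a small stress-induced chromatin protein, was at 30.5 against 4.99 CPM (log2 ratio 1.83) and at 41.6 against 2.07 CPM (2.72, from 181 against 9 UMIs). CEBPG, another partner of ATF4, had log2 ratios of 1.29 and 0.86, ATF3, a repressor and activator of the same family, 1.09 and 0.66, and ATF5 0.63 and 0.71.

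Secreted and signaling outputs were higher in 3 of 6 cases in P3FI-90 cells and 2 of 3 in DMSO cells. GDF15, a stress cytokine, was at 121 against 21.9 CPM in P3FI-90 cells (log2 ratio 2.23) and 51.5 against 13.6 CPM in DMSO cells (1.602). SESN2, which encodes Sestrin-2, a brake on the growth kinase mTORC1, was at 42.1 against 5.69 CPM and 19.5 against 4.15 CPM. DDIT4, a further brake on mTORC1, was at 58.8 against 9.57 CPM in P3FI-90 cells (2.13), and had too few UMIs in the DMSO pairs to be called. Not all outputs moved, as STC2, a secreted glycoprotein, had ratios of 0.08 and 0.25. FGF21 and ADM2 were hardly detected, with 7 and 3 UMIs in P3FI-90 ISR-high cells.

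Amino acid synthesis genes were higher in part, with 6 of 13 genes higher in P3FI-90 cells and 5 of 10 in DMSO cells and a median of 0.56 in each. The serine pathway stood out through PSAT1, at 114 against 43.1 CPM and 81.8 against 36.2 CPM, and PHGDH, which catalyses its first step, at 73.0 against 31.8 CPM and 56.3 against 24.4 CPM. Its last enzyme, PSPH, had ratios of 0.13 and 0.00. The mitochondrial folate enzyme MTHFD2 was at 296 against 131 CPM in P3FI-90 cells (1.15) and 175 against 115 CPM in DMSO cells (0.59), and SHMT2, which feeds it, had ratios of 0.66 and 0.72. Mitochondrial phosphoenolpyruvate carboxykinase (PCK2, 0.99) and the alanine transaminase GPT2 (0.97) were higher in P3FI-90 cells. ALDH18A1, of proline synthesis, had -0.01 and 0.24.

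Amino acid transporters were higher in 5 of 8 cases (median 0.66) and 4 of 7 cases (median 0.65). SLC3A2, the heavy chain shared by several exchangers, was at 263 against 116 CPM in P3FI-90 cells and 170 against 97.5 CPM in DMSO cells. Its light chains SLC7A11, of cystine uptake, and SLC7A5, of leucine uptake, had ratios of 0.71 and 0.61 in P3FI-90 cells and 0.78 and 0.66 in DMSO cells. SLC7A1, the arginine and lysine carrier, had 0.94 and 0.65. The glutamine carriers SLC38A1, SLC38A2 and SLC1A5 stayed within 1.5-fold, at 0.23 to 0.54.

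The tRNA synthetases offered a comparison within 1 enzyme family. Of 13 cytosolic synthetases known as ATF4 targets, 8 were higher in P3FI-90 cells and 3 in DMSO cells, with medians of 0.67 and 0.44. GARS (glycine) was at 193 against 87.2 CPM and 153 against 81.4 CPM, CARS (cysteine) had ratios of 1.07 and 0.99, and SARS (serine) had 0.78 and 0.77. Of the 7 other cytosolic synthetases, none was higher or lower in either library, with medians of -0.06 and 0.03. Their summed level was 695.5 CPM in ISR-high and 690.0 CPM in zero cells of the P3FI-90 library, and 731 and 717 CPM in the DMSO library.

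Of 7 genes on the list of eIF2α kinases and phosphatase subunits, 6 of them measured in DMSO cells, 1 was called higher in each library. PPP1R15A (GADD34), the phosphatase subunit that reverses eIF2α phosphorylation and is itself an ATF4 and CHOP target, was at 193 against 88.1 CPM in P3FI-90 cells and 103 against 65.2 CPM in DMSO cells. The kinase genes EIF2AK1, EIF2AK2 and EIF2AK4 had ratios of -0.11 to 0.08, and EIF2S1, which encodes eIF2α, had -0.17 and -0.04. EIF2AK3, which encodes the ER kinase PERK, was at 11.8 against 6.30 CPM in P3FI-90 cells, a fold of 1.87 that the pseudocount of 5 CPM brought to a log2 ratio of 0.57, just short of the call.

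The ER stress program was mostly within 1.5-fold. Of 19 ER genes in P3FI-90 cells, 3 were higher, and of 17 in DMSO cells, 1 was, with medians of 0.14 and 0.03. HERPUD1, of ER-associated degradation, was higher in both libraries, at 203 against 71.0 CPM (1.45) and 89.4 against 51.2 CPM (0.75). DNAJB9 (0.77) and, narrowly, XBP1 (0.59) passed 1.5-fold in P3FI-90 cells and had 0.09 and 0.13 in DMSO cells, a difference that was not tested. The main ER chaperone HSPA5 (BiP) was at 578 against 408 CPM in P3FI-90 cells (0.50) and 340 against 327 CPM in DMSO cells (0.05), and PDIA4, HSP90B1 and CALR lay between -0.09 and 0.22.

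Death and other stress programs shifted little. The pro-apoptotic gene PMAIP1 (NOXA) was at 65.8 against 34.1 CPM in P3FI-90 cells (0.86) and 33.8 against 29.3 CPM in DMSO cells (0.18). GADD45A, a p53 and ATF4 target of growth arrest, was at 314 against 165 CPM (0.91) and 187 against 145 CPM (0.36). The other 9 p53 targets measured in P3FI-90 cells were within 1.5-fold, among them CDKN1A (-0.16) and MDM2 (0.23). TNFRSF10B, the death receptor DR5 that CHOP is known to induce, had 0.03 and -0.07. Heat shock genes had medians of -0.22 and 0.03, with HSPA1A lower in P3FI-90 cells, at 12.8 against 21.9 CPM. NRF2 targets had medians of -0.12 and 0.19.

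Outside all lists, 5 genes were higher in both libraries. JDP2, a leucine zipper factor of the AP-1 and ATF family, was at 39.9 against 13.5 CPM in P3FI-90 cells (1.28) and 21.4 against 6.69 CPM in DMSO cells (1.17). SH3BGR had ratios of 1.00 and 1.04, and the transcriptional coregulator IFRD1 had 0.93 and 0.82. SNHG7, a long noncoding RNA that hosts small nucleolar RNAs, had 0.74 and 0.70, and MSC (musculin), a bHLH repressor of myogenesis, had 0.77 and 0.69. The share of cells with a UMI was higher for all 5 genes in the P3FI-90 pairs, with intervals that did not overlap. At least 1 JDP2 UMI was found in 46.5% of ISR-high and 19.7% of zero cells in the P3FI-90 pairs, and in 43.1% and 15.7% in the DMSO pairs. In the DMSO pairs these intervals did not overlap for JDP2 and SH3BGR and overlapped for the other 3 genes, as SNHG7 was found in 87.6% of ISR-high cells (81.3 to 92.4%) and 84.3% of zero cells (77.6 to 89.7%).

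Of the 26 genes higher in both libraries that were no rule genes, 21 had a RefSeq promoter listed, and 9 of the 21 (42.9%) held TGATGNAA on either strand, against the 4.46% of all genes given above. These were ATF3, CARS, CEBPG, GARS, HERPUD1, IFRD1, JDP2, SLC3A2 and SLC7A1. In HERPUD1 the element lay at bases 75 to 82 of the printed promoter, and in JDP2 at bases 235 to 242. Of 4 rule genes with a promoter listed, 2 held it, at bases 183 to 190 in ASNS and 42 to 49 in CHAC1. The 26 genes were called among all 7502 genes measured in both libraries, whether or not on a list, and 20 of them were on the response lists. The 4.46% covers all genes with a promoter listed and not only those measured in these cells, for which no share was computed.

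Genes lower in both libraries were 3 of 7502 (0.04%). ELN (elastin) was at 31.3 against 66.7 CPM in P3FI-90 cells (-0.98) and 31.2 against 83.7 CPM in DMSO cells (-1.29). THBS1 (thrombospondin-1), a secreted matrix protein, was at 7.58 against 19.8 CPM (-0.98) and 6.66 against 17.3 CPM (-0.93). CCDC80, a further matrix gene, was lower in P3FI-90 cells (22.1 against 73.5 CPM) and had a ratio of -0.20 in DMSO cells. DHRS2, a short-chain dehydrogenase, was at 9.47 against 31.6 CPM and 2.76 against 33.2 CPM, but a few cells carried nearly all of it. In the P3FI-90 pairs 1% of cells held 95.1% of its UMIs in ISR-high and 88.2% in zero cells. In DMSO cells its ratio turned to 0.23 when ISR-high cells were taken from 8 UMIs upward. Some of these calls moved with the settings, as THBS1 had -0.34 in DMSO cells under that limit and ELN had -0.48 there without pairing. In DMSO cells of 12000 to under 24000 UMIs ELN was at 72.2 CPM at 3 or 4 rule UMIs and 55.5 CPM at 0. In the P3FI-90 pairs 1% of cells held 26.4% (ISR-high) and 27.5% (zero) of ELN UMIs, and 27.9% and 33.5% of THBS1 UMIs. The intervals of the share of cells with a UMI did not overlap for either gene in the P3FI-90 pairs. In the DMSO pairs they overlapped for both, with THBS1 in 8.17 to 19.5% of ISR-high and 17.6 to 31.8% of zero cells.

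Muscle lineage factors were within 1.5-fold in ISR-high cells. MYOD1, the lineage factor of these tumors, was at 239 CPM in ISR-high and 278 CPM in zero cells of the P3FI-90 library, and at 332 and 324 CPM in the DMSO library. MYOG (myogenin) was at 116 against 110 CPM and 133 against 122 CPM, and DES (desmin) at 295 against 311 CPM and 403 against 332 CPM. Markers of other cell types were close to absent. The 6 in the matrices summed to 0.154 CPM in ISR-high and 0.205 CPM in zero cells of the P3FI-90 library, and 0.459 and 0.692 CPM in the DMSO library, with PTPRC and VWF at 0 in all 4 classes. Of 12 contractile genes in P3FI-90 cells, MYL1, MYH3 and TNNC2 were lower (-0.61 to -0.81) and none was higher, with a list median of -0.38. In DMSO cells 1 of 9 was higher (MYL1) and none lower, with a median of 0.15.

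Cell cycle lists moved with the class, though none of their 31 genes passed 1.5-fold in either library. Of 15 G2 and mitosis genes 14 had ratios above 0 in P3FI-90 cells (median 0.23), and their sum was 3399 CPM in ISR-high and 2711 CPM in zero cells. In DMSO cells 5 of 15 were above 0 (median -0.11), with 3131 and 3341 CPM. DNA replication genes were above 0 in 1 of 16 cases in P3FI-90 cells (median -0.20) and 4 of 16 in DMSO cells (median -0.15). The median mitochondrial share was 6.61% in ISR-high and 7.21% in zero cells of the P3FI-90 pairs, and 5.59% and 6.03% in the DMSO pairs. The part of the cell cycle and of the mitochondrial share in the gene ratios was not tested. A doublet caller marked 3 cells of 8346 and 0 of 9313, too few to rely on, so the 3% of cells with the highest doublet scores were left out as an alternative. Those 251 P3FI-90 cells were 51.8% ISR-high (130 cells) with a median of 30187 UMIs, and the 280 DMSO cells were 3.21% ISR-high. Without them the counts of higher response genes stayed within 1.5 times, while SLC7A1 (0.54) and MTHFD2 (0.55) in DMSO cells fell short of 1.5-fold. Without pairing, ATF3 (0.54), PPP1R15A (0.53), SLC7A1 (0.28) and MTHFD2 (0.54) did so in DMSO cells.

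The response lists rose with the rule UMIs from bin to bin. Counting error spreads cells over neighboring bins, so these levels cannot tell a graded response from a mix of separate states. Among cells with 12000 to under 24000 UMIs, the summed level of the 6 lists in P3FI-90 cells was 3390 CPM at 0 rule UMIs, 3765 at 1, 4158 at 2, 4624 at 3 or 4, 5295 at 5 to 9 and 6286 at 10 or more. ATF4 was at 103, 120, 143, 166, 201 and 225 CPM in the same bins. In DMSO cells the lists were at 3278, 3442, 3700, 3998, 5127 and 6005 CPM, the last bin holding only 7 cells. Summed over the lists, the bins at 1 to 4 UMIs thus held more of the response transcripts than the zero cells. Not every list rose by itself. In DMSO cells the eIF2α kinase and phosphatase list was at 360, 357, 360 and 347 CPM at 0, 1, 2 and 3 or 4 rule UMIs. Zero cells are those with the fewest rule transcripts rather than cells shown to lack the response. The other tRNA synthetases ran from 682 to 739 CPM over the bins in P3FI-90 cells. The G2 and mitosis list was at 2552 CPM in the first and 3860 CPM in the last P3FI-90 bin, but at 3403 and 2329 CPM in DMSO cells, and its part in the other levels was not tested.

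**Figure D4:**
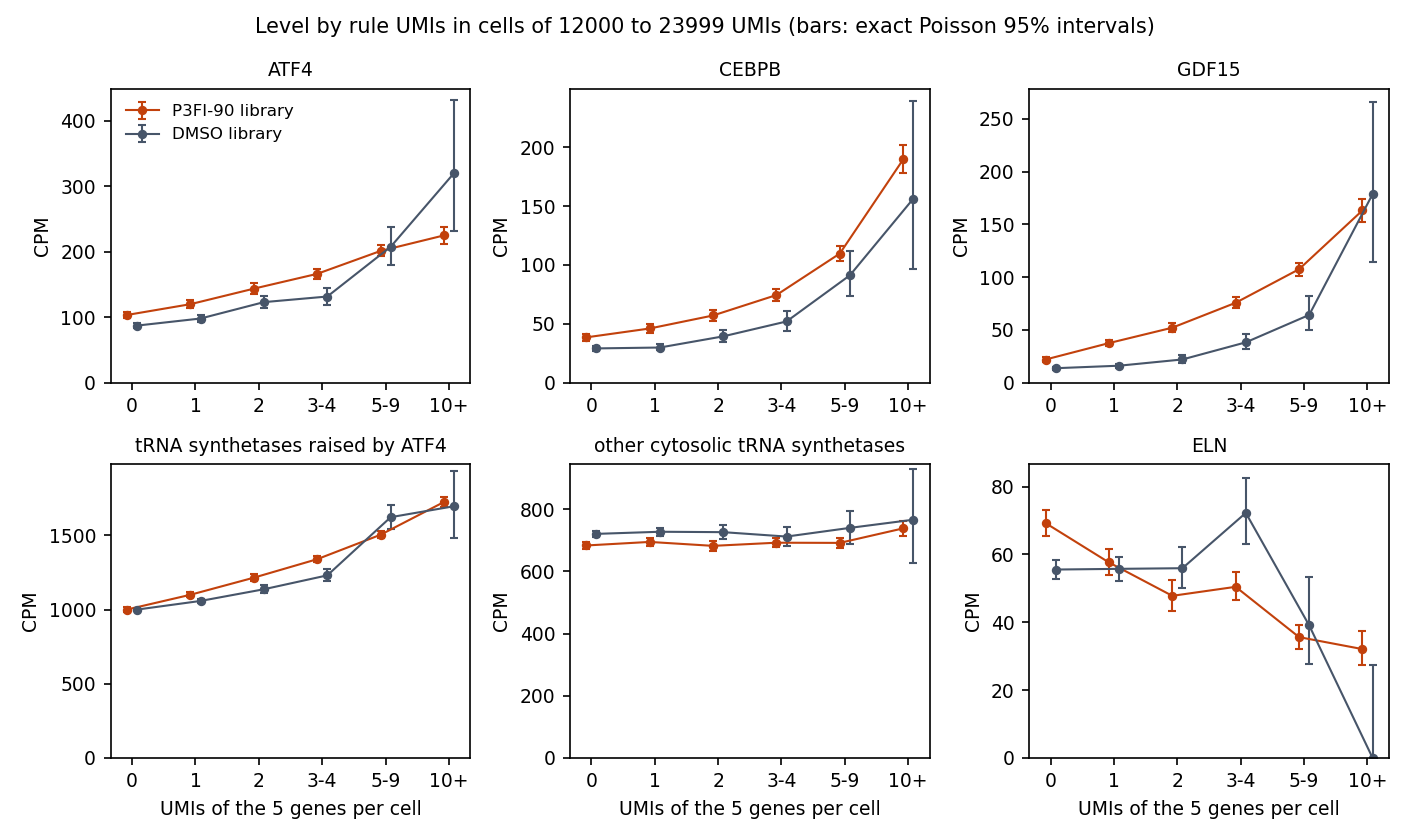
Summed level in CPM (vertical axis, with exact Poisson 95% intervals) of 4 genes and 2 lists that the rule did not use, by UMIs of the 5 rule genes per cell (horizontal axis), in cells with 12000 to under 24000 UMIs of each library. ATF4 was at 103 CPM at 0 UMIs and 225 CPM at 10 or more in P3FI-90 cells, while the tRNA synthetases outside the ATF4 program stayed between 682 and 739 CPM.

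ISR-high cells also lay near each other by their other genes. Neighbors were taken from cells thinned to equal depth, on 30 principal components of 2000 variable genes without the rule genes. Among the 15 nearest neighbors of P3FI-90 ISR-high cells 39.4% were ISR-high, against 11.7% among those of zero cells and 24.4% of all cells. In the DMSO library the shares were 4.3% and 0.8%, against 1.70% of all cells. No ISR-high neighbor was found for 2.1% of P3FI-90 and 59.5% of DMSO ISR-high cells. The P3FI-90 cells thus mixed with other cells while leaning toward each other, as a description of these 2 libraries. P3FI-90 ISR-high cells were also deeper before thinning and higher in the G2 and mitosis list. The part of either in the neighbor shares was not tested.

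ISR-high cells of the 2 libraries were also set against each other at equal depth, in 155 pairs with medians of 26372 (P3FI-90) and 26377 UMIs (DMSO). The pairs were not matched on rule UMIs, and the 5 rule genes summed to 339 CPM in P3FI-90 and 254 CPM in DMSO cells. The response lists moved with the rule UMIs, and the part of this imbalance in the differences below was not tested. Of 7521 genes, 89 (1.18%) were higher and 143 (1.9%) lower in P3FI-90 than in DMSO ISR-high cells. Of 47 response genes outside the rule, 4 were higher and 1 lower, and the summed lists were at 5050 and 4593 CPM. DDIT4 (42.1 against 18.0 CPM), PPP1R15A (185 against 105 CPM), SESN2 (36.3 against 20.03 CPM) and GDF15 (86.6 against 51.6 CPM) were higher, and ATF5 was lower (34.7 against 55.4 CPM). ATF4 was at 203 CPM in P3FI-90 and 191 CPM in DMSO ISR-high cells. Among the rule genes, which chose the cells, DDIT3 was at 170 against 101 CPM while TRIB3 was at 53.2 against 54.7 CPM. The ER genes HERPUD1 (160 against 90.1 CPM), DNAJB9 and HSPA5 (521 against 343 CPM) were higher in P3FI-90 cells, and MYOD1 (204 against 334 CPM) was lower.

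Zero cells of the 2 libraries were compared in the same way. Over 2095 pairs, 4 of 11546 genes (0.0346%) were higher and 13 (0.113%) lower in P3FI-90 than in DMSO zero cells. None of 53 response genes passed 1.5-fold, and the summed lists were at 3464 and 3305 CPM. Zero cells of both libraries were chosen for holding no rule UMI, and the response lists moved with those UMIs. Their likeness is thus partly set by the choice and does not show that these cells were left unchanged. More pairs make sums steadier, so the counts of genes in the 2 comparisons cannot be set against each other directly. The 2 mitotic genes CDC20 (129 against 211 CPM) and PLK1 (41.9 against 72.5 CPM) were among those lower in P3FI-90 zero cells.

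Bulk RNA of the same line at 24 h was not used to class the cells and had replicates. The rule genes and the other lists were, however, chosen with earlier results of these data known. Their bulk levels are therefore no independent test of that choice. In the bulk files the levels are TPM, which are scaled for transcript length and library total and keep no depth. In bulk a change in level cannot be told apart from a change in the share of responding cells. DDIT3 had 132, 375 and 218 TPM in the 3 P3FI-90 libraries, 484 and 557 TPM in the 2 P3FI-63 libraries and 16.0, 52.9 and 20.2 TPM in the 3 DMSO libraries. TRIB3 had 129, 242 and 279 TPM in P3FI-90, 209 and 216 TPM in P3FI-63 and 22.1, 25.7 and 25.5 TPM in DMSO libraries. Treated libraries lay above all DMSO libraries for both genes, and DDIT3 varied about 3-fold within both the P3FI-90 and the DMSO group. ASNS had 118, 218 and 249 TPM in P3FI-90, 318 and 183 TPM in P3FI-63 and 34.2, 53.5 and 39.4 TPM in DMSO libraries. INHBE had 82.0, 144 and 167 TPM in P3FI-90, 72.9 and 8.05 TPM in P3FI-63 and 12.7, 19.6 and 13.02 TPM in DMSO libraries, so that the P3FI-63 libraries lay on either side of the DMSO range. CHAC1 had 6.72, 17.4 and 23.0 TPM in P3FI-90, 21.1 and 5.81 TPM in P3FI-63 and 1.54, 3.01 and 3.86 TPM in DMSO libraries.

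**Figure D5:**
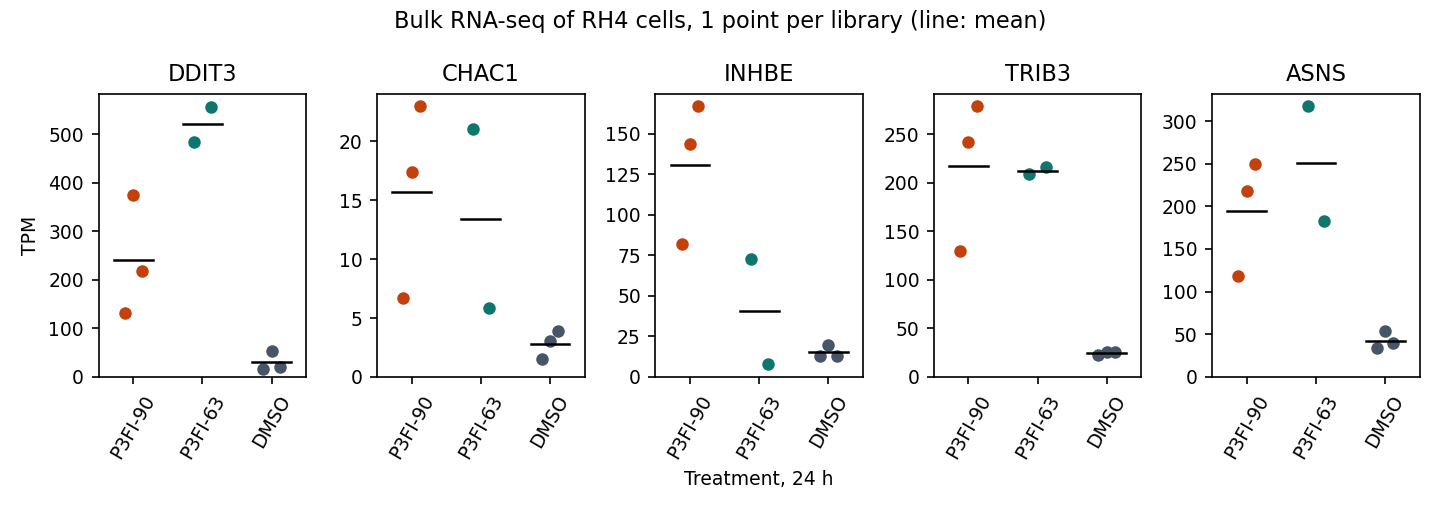
TPM (vertical axis, linear and from 0) of the 5 rule genes in each bulk library at 24 h, with P3FI-90 (3 libraries), P3FI-63 (2 libraries) and DMSO (3 libraries) from left to right and a line at the group mean. All 3 P3FI-90 libraries lay above all 3 DMSO libraries for each gene, and the P3FI-63 libraries lay at 72.9 and 8.05 TPM for INHBE and at 318 and 183 TPM for ASNS. The rule genes were chosen with earlier results of these data known.

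Tested with limma on log2(TPM + 1) over 12332 genes, TRIB3 rose with P3FI-90 (log2 fold change 3.03, SE 0.287, adjusted p = 0.0183) and was the only gene called (0.00811% higher, 0% lower, with 244 genes at an unadjusted p under 0.05). DDIT3 (3.04, SE 0.469, adjusted p = 0.426), ASNS (2.13, adjusted p = 0.426), INHBE (2.999, adjusted p = 1) and CHAC1 (2.04, adjusted p = 1) did not pass in this fit, which has no term for the replicate number. The fit shares 1 estimate of spread over the 3 groups, so the P3FI-63 libraries, at 72.9 and 8.05 TPM for INHBE, also widen the P3FI-90 comparison. A fit of the P3FI-90 and DMSO libraries alone was not run. With P3FI-63, 143 genes (1.16%) were higher and 149 (1.21%) lower, and TRIB3 (3.07, adjusted p = 0.00287), DDIT3 (4.27, adjusted p = 0.00552) and ASNS (2.51, adjusted p = 0.0122) rose. The median log2 fold change over all genes was -0.08 with P3FI-90 and -0.35 with P3FI-63. The TRIB3 call with P3FI-90 was lost, at limma adjusted p of 0.0516 to 0.185, without any 1 library other than P3FI-90 replicate 1 (adjusted p = 0.00403 without it). P3FI-63 replicate 4 stood apart, with a mean correlation of 0.886 with the other libraries against 0.930 to 0.954, and without P3FI-63 replicate 3 the fold change of INHBE was -0.80. Without P3FI-63 replicate 4 it was 2.22 (adjusted p = 0.0390). ASNS with P3FI-63 no longer passed without DMSO replicate 1 (limma adjusted p = 0.0565) or 4 (adjusted p = 0.0506).

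Most response genes outside the rule had bulk fold changes above 0. Of 55 tested, none was called with P3FI-90 by limma (22 at an unadjusted p under 0.05) and 49 had a fold change above 0, with a median of 0.55, while 4670 of all 12332 genes were above 0. With P3FI-63, 8 rose and none fell, with a median of 0.38 and 39 above 0, beside 3310 of all 12332 genes. ATF3 averaged 105 ± 13.2 TPM in P3FI-90 (SD, n = 3), 244 ± 97.9 TPM in P3FI-63 (n = 2) and 50.4 ± 6.74 TPM in DMSO libraries (n = 3), and rose with P3FI-63 (limma adjusted p = 0.00714). ATF4 averaged 579 ± 161 TPM in P3FI-90, 921 ± 31.1 TPM in P3FI-63 and 290 ± 115 TPM in DMSO libraries, and rose with P3FI-63 (limma adjusted p = 0.0308). CEBPB (limma adjusted p = 0.0200), NUPR1 (0.0328) and SESN2 (0.00863) also rose with P3FI-63. Without DMSO replicate 1, ATF4 (limma adjusted p = 0.124), CEBPB (0.0983) and NUPR1 (0.127) no longer passed, likewise without DMSO replicate 4 (0.112, 0.0839 and 0.112). CEBPB and NUPR1 also lost the call without DMSO replicate 3 (0.0648 and 0.0771), ATF4 and NUPR1 without P3FI-90 replicate 4 (0.0557 and 0.0615), and ATF4 and CEBPB without P3FI-63 replicate 4 (0.0991 and 0.0514). Both comparisons use the same 3 DMSO libraries.

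Genes named from the cells could be read in the same bulk libraries. SH3BGR averaged 66.0 ± 25.5 TPM in P3FI-90, 109.5 ± 39.4 TPM in P3FI-63 and 24.7 ± 3.01 TPM in DMSO libraries, and rose with P3FI-63 (limma adjusted p = 0.0298). JDP2 averaged 13.4 ± 3.36 TPM in P3FI-90, 9.05 ± 6.39 TPM in P3FI-63 and 6.60 ± 1.28 TPM in DMSO libraries. HERPUD1 averaged 175 ± 23.8 TPM, 254 ± 194 TPM and 74.9 ± 9.58 TPM in the same 3 groups. Neither passed the test, though HERPUD1 did with P3FI-63 when its replicate 4 was left out (log2 fold change 2.38, limma adjusted p = 0.00381). ELN averaged 148 ± 94.99 TPM in P3FI-90, 55.2 ± 2.40 TPM in P3FI-63 and 159 ± 146 TPM in DMSO libraries, with an SD in DMSO nearly as large as its mean. At 6 h, with 1 library each, DDIT3 was at 39.1 TPM with P3FI-90 and 20.6 TPM in DMSO, while TRIB3 (23.9 against 28.8 TPM), ASNS (53.5 against 66.0 TPM), CHAC1 (2.34 against 2.37 TPM) and INHBE (18.7 against 18.8 TPM) were at or under the DMSO level.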

How the data were processed

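RH4 cells were profiled by 10x 3′ single-cell RNA-seq (1 library per condition) and bulk poly-A RNA-seq. For the cells, the authors deposited UMI counts in a sparse matrix of genes by barcodes, made with Cell Ranger 6.1.2 on hg19. The 2 libraries held 156822590 UMIs (P3FI-90) and 145739386 UMIs (DMSO). The deposited bulk values are TPM, made by the authors with STAR and RSEM on hg19. The study's methods give the single-cell dose of P3FI-90 as 1 µM and a doublet filter whose cells are not marked in the matrices.

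Cells were filtered, classed, thinned and paired in python 3.11.15 with numpy 2.4.6, scipy 1.17.1, scanpy 1.11.5 and scikit-learn 1.9.0, at a seed of 1. Of the barcode sequences, 34 occurred in both libraries, 13 of them among filtered cells. Gene ratios used 100 UMIs over the pairs as a minimum and a pseudocount of 5 CPM. Shares have exact Clopper-Pearson and sums exact Poisson intervals at 95%. For bulk, all 8 libraries at 24 h entered 1 limma fit (version 3.58.1, R 4.3.3, trend on) of log2(TPM + 1), over genes averaging 1 TPM or more, with Benjamini-Hochberg adjustment at 0.05. The study's methods call sets of RNA-seq libraries biological replicates without naming those used here, and the labels do not say whether they were separate cultures. The p-values measure the spread between these libraries. The scripts for the cells were tested on simulated data. Alternatives changed the class limits, depth and mitochondrial filters, rule genes, doublets, pairing, pseudocount, low-value filter, scaling, replicate block and single bulk libraries.

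The cells and the gene lists (251 genes, of which 1 is not in the matrices) were chosen with earlier results of these data known. Genes named are the 5 rule genes, measured list members, and up to 12 genes outside the lists in each direction with the largest ratios among those past 1.5-fold the same way in both libraries. Promoters were matched by current symbol, and their build differs from that of the files. ChIP-seq and ATAC-seq peak files and the other bulk files were not used here.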

Additional observations from a re-analysis of the deposited data

Results flagged for a closer look

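MYL1, a myosin light chain, was past 1.5-fold in opposite directions in the 2 libraries. Its log2 ratio of ISR-high over zero cells was -0.61 in P3FI-90 cells (44.3 against 70.2 CPM) and 0.83 in DMSO cells (89.1 against 47.9 CPM). The difference was not tested, with 1 library each. A few cells carried much of it, as 1% of P3FI-90 zero cells held 48.0% of their MYL1 UMIs, and 1 DMSO ISR-high cell held 112 of 388.

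Barcodes left out by the filters also held rule UMIs. Of P3FI-90 cells with 15% or more mitochondrial UMIs and at least 4000 UMIs, 4.67% (15 of 321, Clopper-Pearson 2.64 to 7.59%) reached 5 rule UMIs, against 0 of 258 such DMSO cells, which allows up to 1.42%. Of P3FI-90 cells under 4000 UMIs, 0.237% did (5 of 2110), against 0 of 3229 DMSO cells, which allows up to 0.114%. Their summed rule level was 166 and 224 CPM in the P3FI-90 library, against 32.5 and 43.9 CPM in the DMSO library.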

How the results depend on the processing

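The ISR-high share stayed above that of DMSO under every class limit tried. For P3FI-90 and DMSO it was 31.0% and 2.92% from 4 rule UMIs upward, 12.7% and 0.408% from 8, 22.3% and 1.39% with cells from 2000 UMIs, 26.7% and 2.32% from 8000 UMIs, and 1.82% and 0.0215% after thinning. With 4 rule genes and 4 UMIs it was 15.2% and 1.28% without DDIT3, 29.4% and 2.70% without CHAC1, 29.4% and 2.63% without INHBE, and 26.995% and 1.997% without TRIB3, and 23.2% in P3FI-90 without ASNS. Without rule genes, 66 genes were higher and 46 lower in P3FI-90 cells, and 43 and 39 in DMSO cells. From 8 rule UMIs these were 120 and 86, and 115 and 124. With a pseudocount of 1 CPM they were 151 and 194, and 67 and 96. With a minimum of 20 UMIs the DMSO counts were 91 and 91. Lower genes numbered 25 (P3FI-90) and 113 (DMSO) without pairing, and 30 in P3FI-90 against zero cells with 0 or 1 UMI. Counts of response genes stayed within 1.5 times. Of 406 alternatives for single genes, 388 kept their side of 1.5-fold, 17 lost it and 1 turned (DHRS2 in DMSO, 0.23 from 8 UMIs). Without pairing, the left-out log2 ratios in P3FI-90 cells were 1.64 for DDIT3, 1.92 for TRIB3 and 1.35 for ASNS.

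In bulk, P3FI-90 had 1 gene called, 0 without the TPM filter, 0 after median-ratio scaling and 0 to 1 leaving out 1 library. P3FI-63 had 292, and 537 after scaling and 67 to 4820 leaving out 1 library. The highest, 4820, came without P3FI-63 replicate 3, where INHBE turned to -0.80 (2.22 without replicate 4), and the lowest without DMSO replicate 1. A lone P3FI-63 library is assumed there to vary like the other groups. With the replicate number as a block, on replicates 3 and 4 only, 2 genes (P3FI-90) and 72 (P3FI-63) were called. DDIT3 and ASNS with P3FI-90 stayed uncalled (limma adjusted p = 0.446 each), and ATF4, ATF3, CEBPB, NUPR1 and SESN2 with P3FI-63 were no longer called (0.0512 to 0.0719). The labels do not say that a number marks a shared batch. Deviations from the group mean correlated at 0.31 to 0.64 for same-numbered libraries and at -0.40 to -0.31 for different numbers. P3FI-63 has only 2 libraries, whose deviations mirror each other. Each of its correlations therefore recurs with the sign turned (0.314 and -0.314 with P3FI-90 replicate 3), and is no separate observation. The cause of these moves was not tested. With 158 DMSO ISR-high cells, genes under 100 UMIs over the pairs could not be compared, and 1 library per condition leaves every single-cell contrast without a replicate.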

Other observations

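Some genes outside the lists passed 1.5-fold in 1 library only and were picked here after their values were seen. EIF4EBP1, a repressor of cap-dependent translation and known ATF4 target, was at 423 CPM in ISR-high and 255 CPM in zero cells of the P3FI-90 library (log2 ratio 0.72), and had 0.58 in the DMSO library, just short of 1.5-fold. CCND1, which encodes cyclin D1, was at 35.1 against 73.7 CPM in P3FI-90 cells (-0.97) and had -0.10 in DMSO cells. FEN1, a nuclease of DNA replication, was at 50.03 against 87.6 CPM in P3FI-90 cells. In DMSO cells the linker histone HIST1H1B was at 53.8 against 140 CPM (-1.30) and HIST1H1D at 39.1 against 86.7 CPM (-1.06), and the histone genes HIST1H1C (-0.75), HIST1H1E (-0.91) and HIST2H2AC (-0.81) were lower too. Whether these differences hold between libraries was not tested.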
